A study of Mus musculus with 2 samples.

Results

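The genes described here are 39 markers of the dividing cell, 18 of S phase and 21 of G2 and mitosis (G2/M), out of 32285 genes counted in each library. They were chosen by name. Each was followed in all T cells and in cycling T cells, meaning T cells with at least 4 of the 7 genes Mki67, Top2a, Birc5, Cdk1, Ube2c, Ccnb2 and Pclaf detected by 1 or more UMIs (unique molecular identifiers, which count captured RNA molecules). By that rule 78 of 9088 T cells were cycling in the library labelled IEL and 126 of 12039 in the library labelled TIL. The study made single-cell libraries of γδ T cells from C57BL/6J mice aged 18 to 20 weeks. IEL came from normal colon tissue and TIL from colon tumor, with 1 library each. The labels give no tumor model, sort or gate and no number of mice, and the protocol text speaks of tumor tissue for both libraries. The T cells held 68541799 UMIs in IEL and 90177613 in TIL. With 1 library a group there is no replicate check: every difference below is between these 2 libraries, and each 95% interval, given in brackets, covers counting error only.

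A cell that divides first licenses its replication origins with the ring of MCM proteins, then fires them and copies its DNA in S phase with the sliding clamp PCNA and a supply of deoxynucleotides. It then prepares in G2 and separates its chromosomes in mitosis under cyclin B with CDK1 and the Aurora and Polo kinases. Genes of the first wave are known targets of E2F factors, and genes of the second are known targets of the MuvB complex, which reads CHR elements, together with NF-Y at CCAAT boxes. Intestinal γδ T cells include long-lived residents of the epithelium that carry Cd8a and granzymes, and IL-17 producing cells known to accumulate in colon tumours.

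Motif letters were counted around the start sites of the members. The RefSeq promoter table (GRCm38.p6) held windows for 32 of the 39 members, from 250 bases before to 50 after the start. The E2F motif was searched as TTTCCCGC, TTTCGCGC, TTTGCCGC or TTTGGCGC, the CHR as TTTGAA and the CCAAT box as CCAAT, each on both strands and with overlapping matches counted. An E2F motif was present in 5 of 15 S phase windows, 1 of 17 G2/M windows and 2.32% of all 27025 windows. A CHR was present in 1 of 15 S phase, 10 of 17 G2/M and 18.1% of all windows, and a CCAAT box in 10 of 15, 15 of 17 and 37.9%. Both a CHR and a CCAAT box were present in 10 of 17 G2/M windows, 1 of 15 S phase windows and 7.12% of all windows. Some matches lay after the start. Counting only those wholly before it, an E2F motif was in 3 of 15 S phase windows (1.91% of all windows), a CHR in 6 of 17 G2/M windows (16.3%), a CCAAT box in 10 of 15 and 15 of 17 (34.5%), and both a CHR and a CCAAT box in 6 of 17 G2/M windows (5.73%). These are matches of letters, not bound sites. The bases before the start are printed for 2 MCM subunits with E2F motifs, for Cdk1, the G2/M member whose window held all 3 motifs, and for Mki67, Top2a and Hmgb2, which held CHR and CCAAT letters yet differed widely in where their RNA was found. Capitals mark the matches to any of the 3 motifs, and every line runs 5′ to 3′ on the strand of the gene. The Cdk1 line is shorter, at 224 bases, because the GENCODE gene begins there.
Mcm5 (chr8:75109259-75109508, plus strand): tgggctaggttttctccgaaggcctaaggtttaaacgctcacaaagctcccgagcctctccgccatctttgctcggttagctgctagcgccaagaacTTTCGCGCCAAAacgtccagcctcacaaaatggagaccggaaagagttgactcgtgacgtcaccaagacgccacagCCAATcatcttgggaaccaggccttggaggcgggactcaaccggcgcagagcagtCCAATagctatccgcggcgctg
Mcm6 (chr1:128359706-128359955, minus strand): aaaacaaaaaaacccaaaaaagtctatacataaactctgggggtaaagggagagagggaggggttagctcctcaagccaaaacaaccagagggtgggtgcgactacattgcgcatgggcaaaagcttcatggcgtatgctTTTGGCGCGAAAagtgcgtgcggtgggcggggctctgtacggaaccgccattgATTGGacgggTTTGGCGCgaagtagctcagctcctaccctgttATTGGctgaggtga
Cdk1 (chr10:69352939-69353162, minus strand): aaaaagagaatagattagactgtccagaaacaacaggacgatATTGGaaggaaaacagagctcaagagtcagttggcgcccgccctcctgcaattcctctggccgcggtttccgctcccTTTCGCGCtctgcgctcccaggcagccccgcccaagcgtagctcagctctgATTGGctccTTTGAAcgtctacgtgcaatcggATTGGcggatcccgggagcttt
Mki67 (chr7:135716380-135716629, minus strand): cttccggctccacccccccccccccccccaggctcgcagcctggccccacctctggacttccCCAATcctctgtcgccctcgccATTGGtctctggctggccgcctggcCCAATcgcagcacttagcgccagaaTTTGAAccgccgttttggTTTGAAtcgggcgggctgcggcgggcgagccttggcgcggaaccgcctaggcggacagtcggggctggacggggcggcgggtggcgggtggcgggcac
Top2a (chr11:99024190-99024439, minus strand): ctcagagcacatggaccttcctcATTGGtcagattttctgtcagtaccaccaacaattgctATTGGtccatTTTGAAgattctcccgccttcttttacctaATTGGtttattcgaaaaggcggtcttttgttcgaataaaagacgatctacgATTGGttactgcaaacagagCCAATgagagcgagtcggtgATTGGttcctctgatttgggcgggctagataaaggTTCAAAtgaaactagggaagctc
Hmgb2 (chr8:57511593-57511842, plus strand): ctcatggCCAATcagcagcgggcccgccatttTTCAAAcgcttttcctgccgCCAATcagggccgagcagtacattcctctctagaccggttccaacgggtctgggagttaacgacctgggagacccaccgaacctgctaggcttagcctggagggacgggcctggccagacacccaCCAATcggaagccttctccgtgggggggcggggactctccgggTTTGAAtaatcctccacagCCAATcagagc

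The T cells were those that the CD3 chains define. They had a median of 6863.5 UMIs in IEL and 6464 in TIL, and the 3 CD3 genes summed to 3186 and 3871 CPM (UMIs per 1000000). Trdc, the constant region of the δ chain that defines γδ T cells, was detected in 96.9% of IEL and 98.9% of TIL T cells. Trac, the constant region of the α chain of the other T cell lineage, was detected in 77.9% and 38.1%, so the γδ label could not be checked cell by cell in IEL. Erythroid markers (5 genes) summed to 0.19 CPM in IEL and 85.6 CPM in TIL T cells, myeloid markers (7 of 10 detected in IEL and 10 of 10 in TIL) to 2.76 and 43.9 CPM, and epithelial markers (8 of 8 in both) to 51.5 and 14.3 CPM. Their part in the results below was not tested. The libraries shared 33 barcodes, of which 28 were T cells in both, and no cycling cell was among them.

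Most T cells had none of the 7 rule genes, and a small number had nearly all of them. None of the 7 was detected in 7240 IEL and 9706 TIL T cells, 1 in 1589 and 1949, 2 in 154 and 208, and 3 in 27 and 50. Counts were then flat or rose again: 16 IEL and 18 TIL cells had 4 of the genes, 18 and 28 had 5, 12 and 24 had 6, and 32 and 56 had all 7. Cells with a single rule gene held Top2a in 67.4% of cases in IEL and 64.3% in TIL. Top2a encodes the topoisomerase that untangles DNA in dividing cells.

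**Figure D1:**
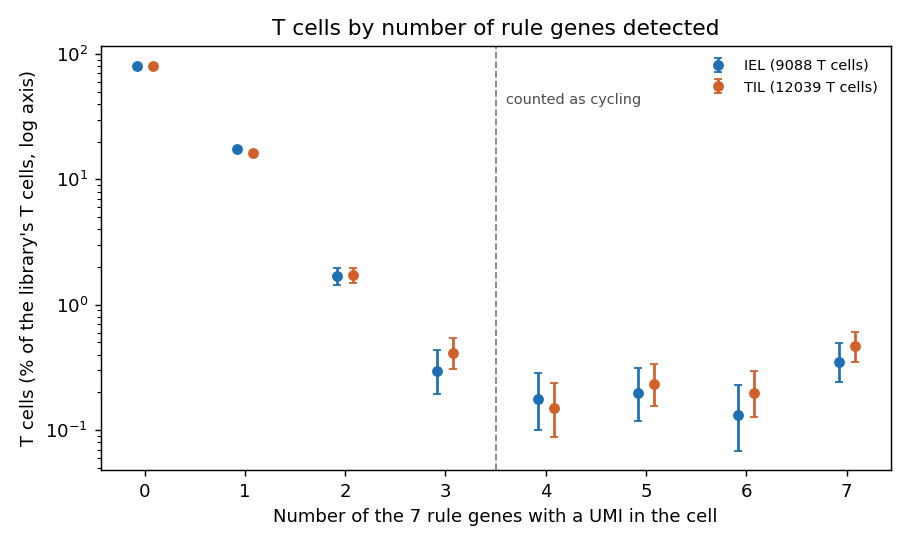
Share of T cells (percent of the T cells of the library, log axis) by the number of the 7 rule genes detected in the cell, with exact 95% intervals, for IEL (blue) and TIL (orange). The share is lowest between 4 and 6 genes and higher again at 7, where 32 IEL and 56 TIL cells lie; cells right of the dashed line were counted as cycling.

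Cycling cells made up 0.858% of IEL T cells (0.679 to 1.07) and 1.05% of TIL T cells (0.873 to 1.24), and the intervals overlapped. Cycling cells were deep, with medians of 17340 UMIs in IEL and 16514.5 in TIL against 6716 and 6208.5 in T cells with none of the 7 genes, so the share depended on depth. After thinning to 2000 UMIs, which kept 9031 IEL and 11960 TIL cells, 0.332% of IEL (0.224 to 0.474) and 0.426% of TIL T cells (0.318 to 0.560) still met the rule. At 4000 UMIs the shares were 0.558% (0.413 to 0.738) and 0.627% (0.488 to 0.793). No difference in the share of cycling cells was detectable at this depth under any of the 3 counts.

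The cycling cells of each library carried the markers of that library's own T cells. Markers were called after thinning each cell to 2000 UMIs, so a marker counted as absent had no UMI in that draw. The cycling rule used all UMIs. In IEL, 73 of the 78 cycling cells had Cd8a or Gzma and neither Cd163l1 nor Il17a. Such cells made up 86.9% of the 9031 T cells kept by thinning and cycled at 0.930% (0.730 to 1.17). In TIL, 63 of 126 had Cd163l1 or Il17a and neither of the others, where such cells made up 51.1% of the 11960 T cells kept and cycled at 1.03% (0.793 to 1.32). TIL cells with Cd8a or Gzma alone cycled at 1.37% (14 of 1019 cells, 0.753 to 2.29), cells with markers of both kinds at 1.22% (41 of 3348, 0.880 to 1.66) and cells with neither at 0.541% (8 of 1478, 0.234 to 1.06). The intervals of all 4 TIL groups overlapped. The part of free RNA in these marker groups was not tested. None of the 33 IEL cells with Cd163l1 or Il17a alone was cycling, and a limit of 3 counts allows a share of up to 9.09%.

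All 78 IEL cycling cells held a Trac UMI, as did 91 of 126 TIL cycling cells. At 2000 UMIs per cell, Trac was found in 57.7% of IEL cycling cells (46.0 to 68.8) against 42.0% of IEL T cells with none of the 7 genes (40.9 to 43.2). In TIL the shares were 15.9% (9.97 to 23.4) and 15.2% (14.5 to 15.9). Trdc was found in 66.7% of IEL cycling cells (55.1 to 76.9) against 74.9% of the others (73.9 to 75.9). The IEL interval for Trac lay above that of the other IEL T cells, and the TIL intervals overlapped. Without thinning, Trac was found in 76.0% of IEL and 36.6% of TIL T cells with none of the 7 genes. Among T cells with a γδ receptor UMI and no Trac UMI, cycling cells were 0 of 1998 in IEL, where a limit of 3 counts allows up to 0.150%, and 35 of 7436 in TIL (0.471%). The part of depth in that count was not tested.

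Over all T cells, where cycling cells gave only 1.99% of the IEL and 2.61% of the TIL UMIs, no member was at least 2-fold higher in TIL and 3 were at least 2-fold higher in IEL. Genes were counted here if 1 of the libraries reached 20 CPM, the ratio reached 2 and its interval left out equality. By that rule 13.6% of 6320 genes lay higher in IEL and 10.9% lay higher in TIL. Of the members, 9 of 18 S phase and 6 of 21 G2/M genes reached 20 CPM, and 3 of 15 is read against that background and is no result about the members. The median log2 ratio of TIL over IEL was -0.28 for the 9 S phase genes and 0.15 for the 6 G2/M genes, against -0.10 for all genes so filtered. Over all 18 and all 21 members, with no minimum, the medians were -0.02 and -0.17, so neither phase as a whole stood clearly to one side.

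The genes of the MCM ring, the motor of the replication fork, did not move as 1 unit. Mcm7 was at 42.9 CPM in IEL and 19.2 in TIL, a log2 ratio of -1.16 (-1.24 to -1.07). Mcm4 was at 37.8 and 22.6 CPM (log2 -0.74, -0.83 to -0.66). Mcm6 went the other way, at 44.97 and 65.2 CPM (log2 0.54, 0.47 to 0.60), and Mcm3 was nearly level at 24.3 and 26.5 CPM (log2 0.13, 0.04 to 0.22). Mcm5 was at 19.9 and 17.3 CPM and Mcm2 at 18.1 and 11.5 CPM. Thus 4 of the 6 subunits lay lower in TIL and 2 higher, by amounts beyond counting error. The part of free RNA in the Mcm3 value was not tested.

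Among the genes that feed or hold the polymerase, Tyms, which makes thymidylate, was at 21.1 CPM in IEL and 10.5 in TIL (log2 -1.003, -1.12 to -0.88), which is at the 2-fold limit. The part of free RNA in the Tyms value was not tested. Dut, which clears dUTP, was at 80.0 and 101.1 CPM (log2 0.34, 0.29 to 0.39). Pcna, the clamp, was nearly equal at 108.3 and 104.2 CPM (log2 -0.06, -0.10 to -0.01). Slbp, which binds the stem-loop of histone mRNAs, was at 184.3 and 123.3 CPM (log2 -0.58, -0.62 to -0.54). The 2 cyclin E genes, which drive entry into S phase, parted: Ccne1 was at 5.15 and 1.31 CPM (log2 -1.98, -2.29 to -1.67) and Ccne2 at 3.79 and 3.83 CPM (log2 0.01, -0.22 to 0.25). Both lay under 20 CPM, and Ccne1 rested on 353 and 118 UMIs.

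Of the G2/M genes, Tubb5, a β-tubulin of the spindle and of the ordinary cytoskeleton, was furthest apart, at 261.4 CPM in IEL and 104.7 in TIL (log2 -1.32, -1.36 to -1.28). Hmgb2, a chromatin protein that bends DNA, was at 1225 and 913.1 CPM (log2 -0.42, -0.44 to -0.41). H2afz, the histone variant H2A.Z, was at 688.6 and 945.6 CPM (log2 0.46, 0.44 to 0.47), and Cenpa, the centromeric histone H3, at 155.1 and 211.7 CPM (log2 0.45, 0.41 to 0.48). Stmn1, which takes microtubules apart, was at 41.1 and 56.3 CPM (log2 0.45, 0.39 to 0.52), and at log2 1.94 among T cells with a γδ receptor UMI and no Trac UMI. That last set held 0 cycling cells in IEL and 35 in TIL. Over all T cells, cycling cells held 68.1% of the IEL and 59.8% of the TIL Stmn1 UMIs. The part of the unequal cycling cells in the 1.94 was not tested. The part of free RNA in the Stmn1 and Tubb5 values was not tested. Top2a was at 34.2 and 30.7 CPM (log2 -0.15, -0.23 to -0.07) and Mki67, the Ki-67 antigen, at 18.1 and 14.8 CPM (log2 -0.29, -0.41 to -0.18). The kinases and cyclins of mitosis were near the limit of detection here, Ccnb1 with 1.24 CPM in both libraries and Plk1 with 1.12 in IEL and 0.58 in TIL.

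**Figure D2:**
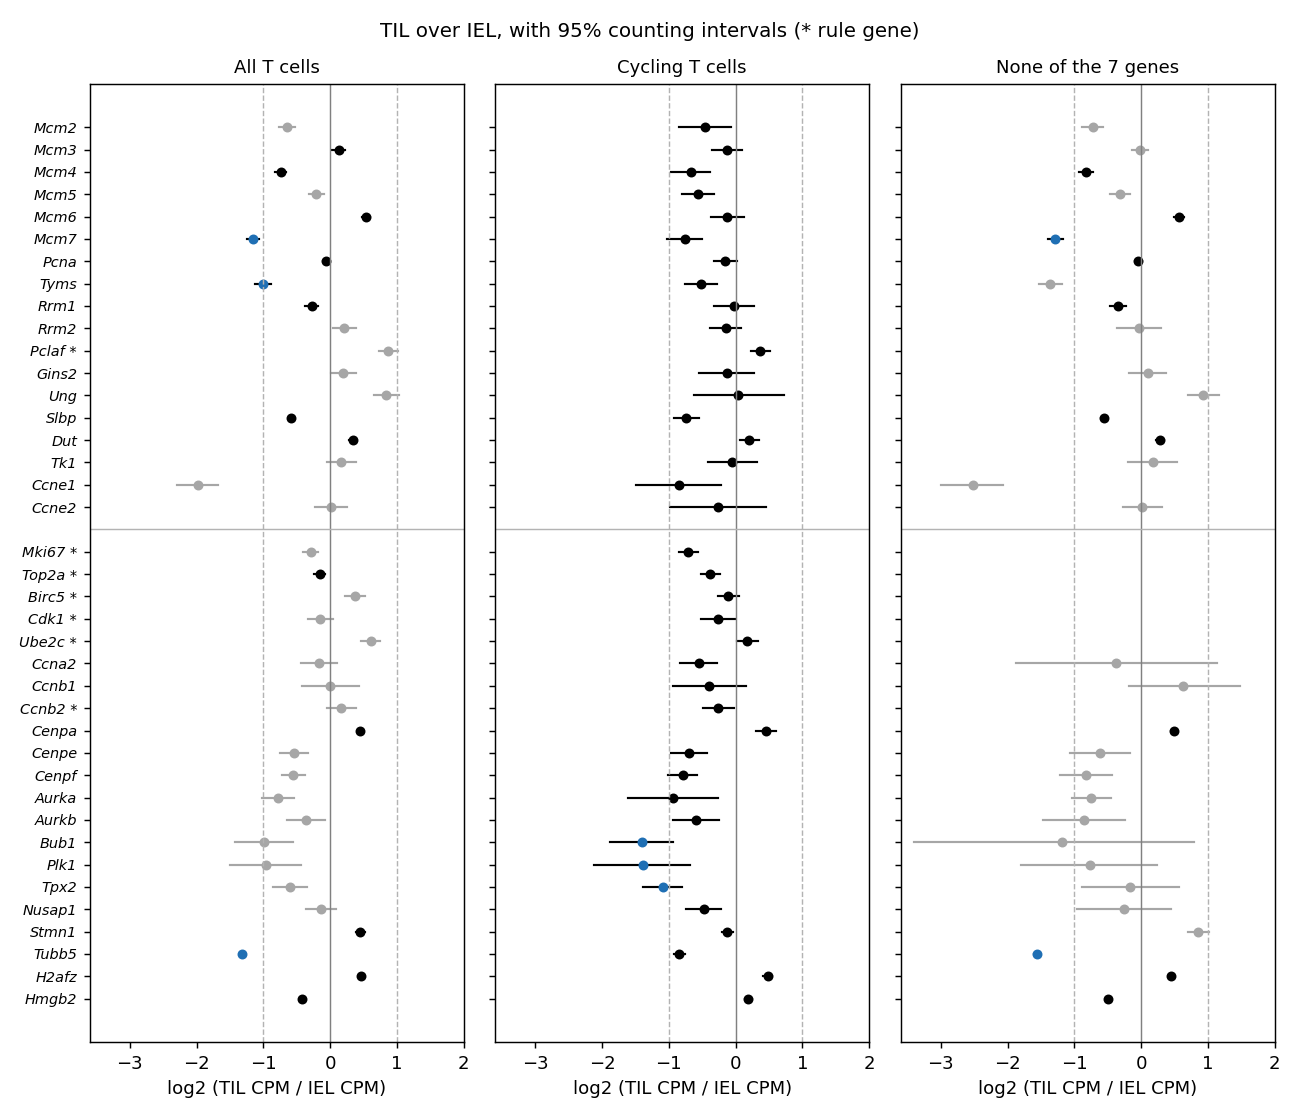
log2 ratio of TIL over IEL for each member with its exact 95% counting interval, in all T cells, in cycling T cells and in T cells with none of the 7 rule genes. Black genes had at least 20 CPM in either library, grey ones less, and blue points were at least 2-fold higher in IEL; the dashed lines mark 2-fold. Rule genes (asterisk) are absent from the right panel because its cells were chosen to lack them.

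In cycling cells all 39 members passed 20 CPM. The S phase genes stood close together between the libraries: their median log2 ratio was -0.15, none of the 18 was 2-fold apart, and the median over all genes was -0.17. The G2/M genes lay lower in TIL, with a median of -0.48 over 21 and of -0.59 over the 15 that the cycling rule did not use. Bub1, Plk1 and Tpx2 were at least 2-fold higher in IEL and no member was so in TIL. Of all 6333 genes that passed, 15% lay higher in IEL and 7.75% higher in TIL, so 3 of 39 is not above the background. Levels of the 7 rule genes in these cells describe cells chosen by them.

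The values of these 3 genes are given singly, since their number does not stand above the background and is not read as a theme. Bub1, a kinase of the spindle checkpoint, was at 74.2 CPM in IEL and 28.0 in TIL (log2 -1.40, -1.87 to -0.94), from 101 and 66 UMIs. Plk1, the Polo kinase that drives mitotic entry, was at 32.3 and 12.3 CPM (log2 -1.39, -2.12 to -0.68), from 44 and 29 UMIs. Tpx2, which targets Aurora A to the spindle, was at 164.5 and 77.3 CPM (log2 -1.09, -1.38 to -0.80). Aurka itself was at 30.8 and 16.1 CPM (log2 -0.93, -1.61 to -0.27), and Mki67 at 552.1 and 338.4 CPM (log2 -0.71, -0.85 to -0.56).

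These G2/M values depended on the deepest cells. Of the cycling cells, 22 of 78 in IEL and 45 of 126 in TIL had over 20000 UMIs. Without them the G2/M median was -0.04 and the S phase median -0.36, against -0.11 for all genes, so the order of the phases turned. Bub1 was at -0.60, Plk1 at -0.42 and Tpx2 at -0.61, all under 2-fold, while Mcm4 (-1.03), Ung (-1.11) and Aurka (-1.03) came to lie past 2-fold. Cells this deep were 57 of 9088 IEL and 179 of 12039 TIL T cells, and no doublet caller was run, so the part of doublets was not tested.

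Some members were higher in TIL cycling cells, by less than 2-fold. H2afz was at 2029 CPM in IEL and 2828 in TIL (log2 0.48, 0.41 to 0.54), and Cenpa at 368.6 and 504.4 CPM (log2 0.45, 0.30 to 0.61). Pclaf, which binds PCNA at the fork, was at 423.7 and 546.0 CPM (log2 0.37, 0.22 to 0.51). Dut was at 423.7 and 488.3 CPM, Hmgb2 at 3187 and 3628 CPM, and Ube2c, the ubiquitin-conjugating enzyme of the anaphase-promoting complex, at 380.3 and 429.7 CPM. H2afz and Cenpa thus lay higher in TIL in cycling cells as in all T cells, and without cells above 20000 UMIs they were at 0.62 and 0.79.

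Those lower in TIL by less than 2-fold included 2 S phase genes with roles outside the fork. Slbp was at 364.9 CPM in IEL and 219.1 in TIL (log2 -0.74, -0.92 to -0.56), and Ccne1 at 33.8 and 18.7 CPM (log2 -0.85, -1.48 to -0.23). Mcm7 had the lowest ratio of the MCM subunits, at 175.5 and 103.6 CPM (log2 -0.76, -1.02 to -0.50), but without cells above 20000 UMIs Mcm4 (-1.03) and Mcm2 (-0.92) lay below it (-0.79). Mcm5 was at 196.8 and 133.3 CPM (log2 -0.56, -0.80 to -0.32). Tubb5 was at 1722 and 960.0 CPM (log2 -0.84, -0.93 to -0.76). Pcna (337.0 and 302.3 CPM), Ccnb1 (37.4 and 28.4 CPM), Ccne2 (22.0 and 18.3 CPM) and Ung (22.8 and 23.4 CPM), the uracil glycosylase, had intervals that included equality.

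**Figure D3:**
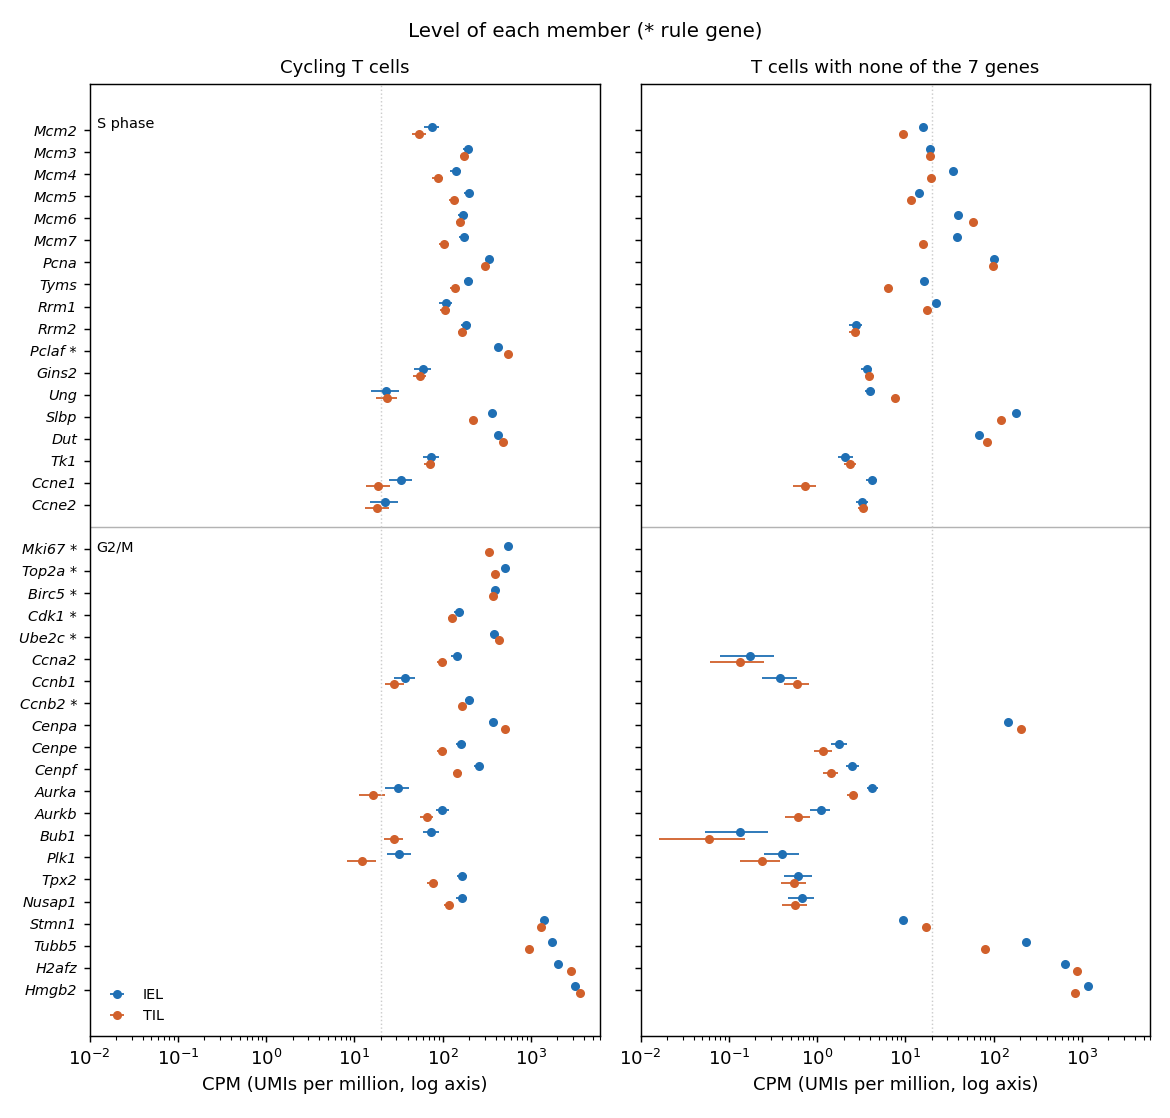
CPM of each member (log axis) in cycling T cells and in T cells with none of the 7 rule genes, IEL in blue and TIL in orange, with exact Poisson 95% intervals; the dotted line marks 20 CPM. Most G2/M genes fall below 5 CPM in the cells with none of the 7 genes, while Cenpa, H2afz and Hmgb2 stay above 100 CPM in both.

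T cells with none of the 7 genes need not all be outside the cycle, since 120 IEL and 79 TIL cells among them had at least 4 of the 6 MCM genes. In these cells 11 of the 32 members that the rule did not use reached 20 CPM. Of these, 7 were S phase genes and 4 G2/M genes, and 2 were at least 2-fold higher in IEL and none in TIL, against 13.6% and 11.1% of 6316 genes. The 2 were Mcm7, at 38.4 CPM in IEL and 15.8 in TIL (log2 -1.28, -1.39 to -1.18), and Tubb5, at 233.6 and 79.4 CPM (log2 -1.56, -1.60 to -1.51). Mcm4 was at 34.9 and 19.8 CPM (log2 -0.82), Slbp at 179.4 and 121.9 CPM (log2 -0.56) and Hmgb2 at 1181 and 834.1 CPM (log2 -0.50). Mcm6 (39.9 and 59.0 CPM, log2 0.57), Cenpa (147.0 and 206.3 CPM, log2 0.49), H2afz (650.3 and 882.9 CPM, log2 0.44) and Dut (68.8 and 83.3 CPM) were higher in TIL. Stmn1, under the minimum, was at 9.40 and 16.99 CPM (log2 0.85, 0.70 to 1.01). The order of the libraries for these genes was that seen over all T cells, to which these cells gave 76.0% of the IEL and 74.9% of the TIL UMIs.

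The libraries hold different T cell groups, so the same genes were set beside each other within the same marker calls, among cells with none of the 7 genes. The same call need not mean the same cell type. Over all cells with none of the 7 genes, Cd8a was at 567.5 CPM in IEL and 63.8 in TIL, and Gzma at 9101 and 4071 CPM. Cells with markers of both kinds, which the group below leaves out, were 34 in IEL and 2655 in TIL. The part of cell type in the values below was not tested. In cells with Cd8a or Gzma and neither Cd163l1 nor Il17a, Tubb5 was at 228.5 CPM in 6156 IEL cells (224.1 to 233.0) and at 110.6 CPM in 836 TIL cells (101.6 to 120.1). In TIL cells with Cd163l1 or Il17a alone it was lower again, at 66.5 CPM (63.8 to 69.2). Mcm7 was at 37.7 CPM in the IEL and 21.8 CPM in the TIL cells with Cd8a or Gzma. In those same cells Mcm6 was at 39.8 and 56.7 CPM, Stmn1 at 9.22 and 21.3 CPM, and H2afz at 672.5 and 986.1 CPM. For Tubb5, Mcm7, Mcm6, Stmn1 and H2afz the libraries thus kept their order within this marker group, with intervals apart. Cenpa (148.6 and 192.7 CPM), Hmgb2 (1232 and 945.0 CPM), Slbp (183.0 and 136.97 CPM) and Mcm4 (34.9 and 27.6 CPM) did so too. Dut did not: it was at 70.7 CPM in IEL (68.3 to 73.3) and 64.2 CPM in TIL (57.4 to 71.5), with overlapping intervals.

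The share of a gene's T cell UMIs that lay in cycling cells differed widely among the members. These cells held 1.99% of the IEL and 2.61% of the TIL UMIs, and over 10186 genes with at least 100 UMIs in both libraries the median share was 1.91% and 2.42%. For the 17 S phase genes outside the rule the median was 10.52% in IEL and 13.8% in TIL, and for the 15 such G2/M genes 60.0% and 59.8%. At least 50% of the UMIs lay in cycling cells for 10 of the 15 G2/M genes and for 1 of the 17 S phase genes, in each library. The 7 rule genes chose the cells, so the values of other genes in them are a description. Of the 7, 6 are G2/M genes and 1 is an S phase gene, so the rule itself leans to G2/M. How much of the contrast between the phases came from the rule was not tested.

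Ccna2, cyclin A2 of S phase and G2, was the most concentrated member by the mean of both libraries, with 197 of 211 IEL UMIs (93.4%) and 232 of 247 TIL UMIs (93.9%) in cycling cells. Bub1 followed among genes outside the rule, with 101 of 113 (89.4%) and 66 of 75 (88.0%). Of the rule genes, Birc5, the survivin subunit of the chromosomal passenger complex, had 93.4% and 88.2%, Pclaf 92.3% and 85.3%, Ccnb2 88.6% and 86.6% and Ube2c 83.1% and 81.0%. The 1 concentrated S phase gene outside the rule was Rrm2, the limiting subunit of ribonucleotide reductase, with 56.5% and 57.6%. The other subunit, Rrm1, had 8.83% and 13.8%.

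At the other end were genes with most of their UMIs outside the cycling cells. Slbp had 3.94% of its UMIs in IEL cycling cells and 4.64% in TIL, Cenpa 4.72% and 6.22%, Mcm6 7.50% and 6.24%, H2afz 5.85% and 7.81%, Pcna 6.18% and 7.57%, and Hmgb2 5.17% and 10.4%. Cenpa, H2afz and Hmgb2 are listed with G2/M yet stood with the least concentrated S phase genes. Even among the rule genes, Top2a had only 29.9% and 33.5% of its UMIs in cycling cells, against 60.6% and 59.8% for Mki67. Stmn1 had 68.1% and 59.8%, while Tubb5 had 13.1% and 23.9%. Hmgb2, Top2a and Mki67, whose promoter letters are printed above, each had 2 CHR matches before the start.

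**Figure D4:**
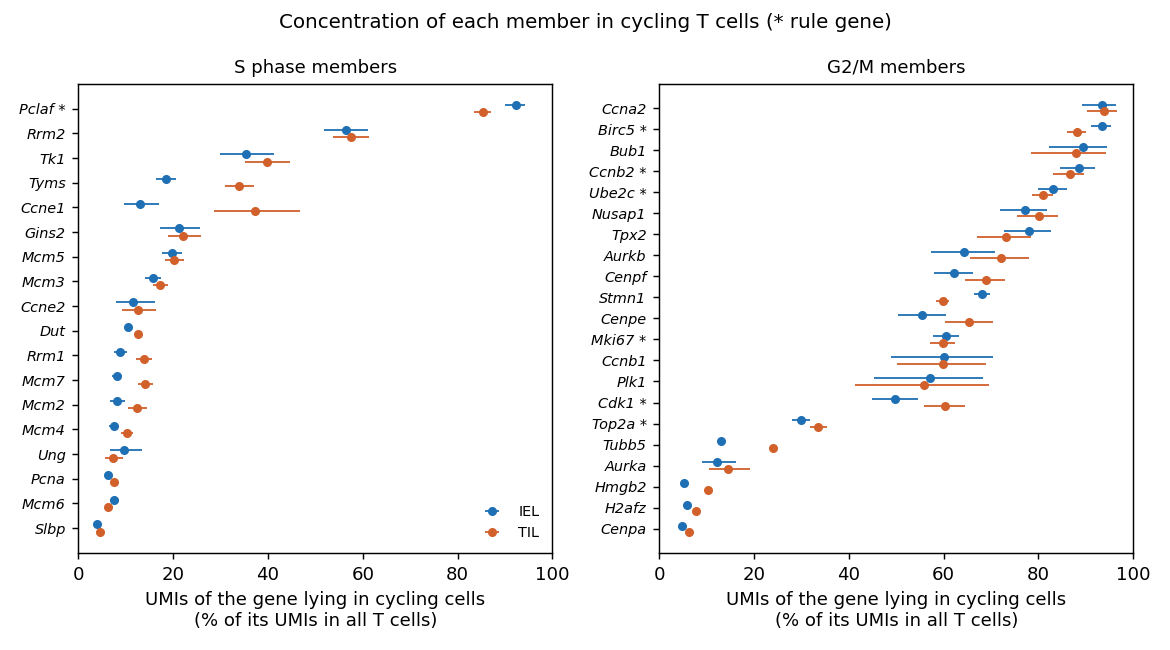
Percent of each member's T cell UMIs that lay in cycling cells, with exact 95% intervals, S phase members on the left and G2/M members on the right, IEL in blue and TIL in orange, each panel sorted by the mean of both. Most G2/M genes lie above 50% and most S phase genes below 25%, with Cenpa, H2afz, Hmgb2, Aurka and Tubb5 at the foot of the G2/M panel.

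Between libraries the shares were close for most members, with a few apart. Tyms had 18.4% of its UMIs in cycling cells in IEL and 33.9% in TIL, Ccne1 13.0% and 37.3%, and Tubb5 13.1% and 23.9%. Each was lower in TIL cells with none of the 7 genes than in such IEL cells: Tyms was at 16.3 CPM in IEL and 6.34 in TIL, and Ccne1 at 4.16 and 0.73 CPM. Hmgb2 likewise went from 5.17% to 10.4%. For these genes the gap between cycling and other cells was wider in TIL: Ccne1 was 8.11-fold higher in cycling cells in IEL and 25.7-fold in TIL, Tyms 11.99-fold and 21.5-fold, and Tubb5 7.37-fold and 12.1-fold. The part of free RNA in the Tyms and Tubb5 values was not tested.

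Genes outside the list that sat most tightly in cycling cells were those of chromosomes and spindle. Hist1h3c, a replication-dependent histone H3, had 91.3% of its UMIs there in IEL and 91.0% in TIL. Hmmr, a spindle protein, had 94.8% and 89.4%, and Ska1, of the kinetochore-microtubule link, 93.5% and 84.2%. Cdca3 (78.9% and 79.4%), Shcbp1 (73.5% and 71.8%), Spc24 (71.2% and 77.1%), Kif4 (80.5% and 70.1%), Cep55 (66.9% and 63.2%), Cdca8 (62.7% and 67.5%) and Rad51ap1 (58.7% and 63.3%) made up the rest of the leading 10. Of the 10, 5 were in none of the pathway lists used here.

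Within single cycling cells the observed counts of S phase and G2/M transcripts were spread over a range with no gap. Each cell was thinned to 4000 UMIs, and UMIs were summed over 17 S phase genes and over 11 G2/M genes, leaving out the 7 rule genes and Stmn1, Tubb5, H2afz and Hmgb2. IEL cycling cells had a median of 11.5 S phase UMIs (quartiles 4 and 14.75) and 5 G2/M UMIs (3 and 8.75), and TIL cycling cells 8 (3 and 13) and 4 (2 and 8). T cells with none of the 7 genes had medians of 2 and 0 in both libraries. The fraction of phase UMIs that were G2/M had a median of 0.354 in IEL (0.263 to 0.5) and 0.364 in TIL (0.261 to 0.476). It ran from 0 to 1 in both libraries, and 29 of 78 IEL (37.2%) and 47 of 125 TIL cells (37.6%) were above 0.5.

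**Figure D5:**
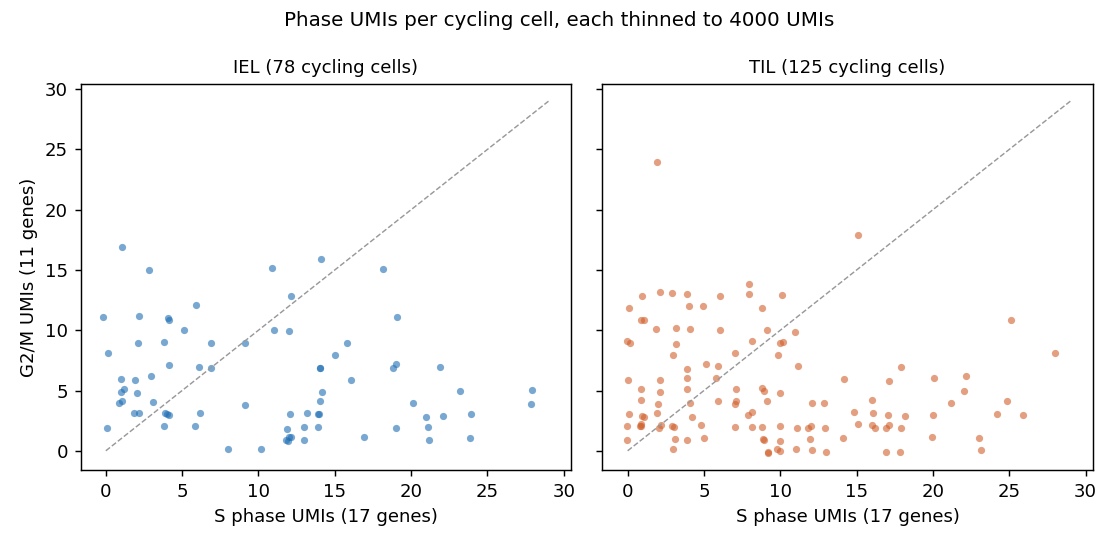
S phase UMIs (17 genes, horizontal) and G2/M UMIs (11 genes, vertical) of each cycling cell after thinning to 4000 UMIs, for 78 IEL and 125 TIL cells, with points shifted slightly to separate ties. The dashed line marks equal sums; 29 IEL and 47 TIL cells lie above it.

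The intervals of this fraction overlapped between the libraries, but its value leaned on Cenpa, which had most of its UMIs outside the cycling cells. Cenpa gave 110 of 450 G2/M UMIs in IEL (24.4%) and 278 of 644 in TIL (43.2%). Without it, in a count chosen after seeing the data, the medians were 0.333 in IEL (0.2 to 0.429) and 0.2 in TIL (0.167 to 0.273), and the intervals still overlapped. A cut at 0.5 did not fall in a gap, since 16 IEL and 24 TIL cells lay between 0.4 and 0.6. Each cell had few phase UMIs, so these fractions cannot tell a continuous range from separate types. With the 7 rule genes put back in their phases the medians were 0.563 and 0.545, since 6 of the 7 belong to G2/M, so the absolute value depends on the genes summed.

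The cyclins were also read singly, by detection in cycling cells at full depth. Ccne1 had 46 UMIs in IEL and 44 in TIL cycling cells, and Ccnb1 51 and 67, so a cell without a UMI may still express the gene. The part of depth in the shares below was not tested. Cyclin E (Ccne1 or Ccne2) was detected in 35 of 78 IEL cycling cells (44.9%, 33.6 to 56.6) and 43 of 126 TIL cells (34.1%, 25.9 to 43.1). Cyclin A2 was detected in 50 (64.1%) and 83 (65.9%), cyclin B1 in 21 (26.9%) and 38 (30.2%), and cyclin B2, a rule gene, in 62 (79.5%) and 95 (75.4%). Cyclin E and cyclin B1, which peak at opposite ends of the cycle, were found together in 6 IEL and 8 TIL cells. Cyclin B1 without cyclin E was found in 15 and 30 cells, and none of E, A2 and B1 in 16 and 25. Plk1 or Aurka was detected in 35 IEL cells (44.9%, 33.6 to 56.6) and 39 TIL cells (31.0%, 23.0 to 39.8), with overlapping intervals.

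Expression of the MCM ring reached beyond the cells counted as cycling. At least 4 of the 6 MCM genes were detected in 264 IEL (2.90%) and 283 TIL T cells (2.35%). Of these, 54 and 84 were cycling, 90 and 120 had 1 to 3 of the rule genes, and 120 IEL and 79 TIL cells had none. Cycling cells were thus 20.5% of the MCM-rich cells in IEL and 29.7% in TIL. The MCM-rich cells not counted as cycling were deep, with medians of 12253.5 and 14256 UMIs, and the part of depth in their number was not tested.

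Free RNA was gauged with 219 TIL barcodes that met the myeloid marker rule (median 7591 UMIs), some of which may themselves divide. Of the 219, 116 also had at least 2 CD3 UMIs, and the part of doublets among them was not tested. IEL held no barcode that met the myeloid rule. At 2000 UMIs, the share of TIL T cells with a UMI was above that of these barcodes for 13 of 18 S phase members and 11 of 21 G2/M members. Mki67 was found in 1.66% of TIL T cells and 3.43% of the myeloid barcodes, Tubb5 in 14.97% and 16.7%, and Stmn1 in 4.40% and 5.39%. Without thinning these were 4.78% and 12.3% for Mki67, 37.1% and 40.2% for Tubb5, and 11.6% and 15.1% for Stmn1. At 2000 UMIs Cenpa was at 29.9% and 14.7%, and Mcm6 at 10.7% and 3.92%. Of the S phase members, Mcm3 (4.41% and 6.86%) and Tyms (1.40% and 2.45%) lay below the myeloid share, as did Pclaf, Gins2 and Tk1. Shares of all TIL T cells for the members at or below the myeloid share are not read here as expression.

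The wider cell cycle machinery was followed in 9 lists of 119 other genes. In cycling cells no gene of any list was at least 2-fold higher in TIL. Higher in IEL were 7 of 15 measured mitotic kinesins and cytokinesis genes, 4 of 14 spindle checkpoint and kinetochore genes, 3 of 7 condensin genes, 3 of 8 replication-dependent histones, 5 of 16 cell cycle brakes, 2 of 18 polymerase and fork genes, 2 of 11 anaphase and cyclin kinase regulators, 1 of 10 origin genes and 1 of 9 G1 entry genes, against 15% of all genes. Median log2 ratios lay between -0.997 for kinesins and -0.24 for G1 entry, against -0.17 for all genes. Without cells above 20000 UMIs these counts were 2 of 15 kinesins, 0 of 14 checkpoint genes, 1 of 7 condensin genes, 2 of 8 histones, 3 of 16 brakes, 0 of 10 origin genes and 1 of 9 G1 entry genes, against 14.0% of all genes. They were 3 of 18 for polymerase and fork genes and 3 of 11 for the regulators, and another regulator came to be higher in TIL.

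Individual genes of these lists were far apart in cycling cells. The linker histone Hist1h1a was at 114.5 CPM in IEL and 11.5 in TIL (log2 -3.32, -3.97 to -2.72) and Hist1h1b at 701.9 and 153.3 CPM (log2 -2.20, -2.37 to -2.02). Without cells above 20000 UMIs they were still at -2.84 and -1.58. Most replication-dependent histone mRNAs lack a poly-A tail, and the libraries were primed on poly-A, so these values describe only the captured part. Foxo1, a transcription factor of quiescence, was at 378.9 and 119.7 CPM (log2 -1.66), and Tob1, an antiproliferative protein, at 74.2 and 24.6 CPM (log2 -1.59). The motor Kif20b was at 99.1 and 33.5 CPM (log2 -1.56), the kinesin Kif18a at 28.6 and 11.04 CPM (log2 -1.38), the checkpoint kinase Ttk at 25.7 and 9.34 CPM (log2 -1.46), the kinetochore scaffold Knl1 at 137.3 and 53.1 CPM (log2 -1.37) and Cdc20, the activator of anaphase, at 105.0 and 40.8 CPM (log2 -1.36). Without the deepest cells Kif20b was at -1.12, Kif18a at -1.30 and Cdc20 at -1.13, while Ttk (-0.93) and Knl1 (-0.85) lay under 2-fold. In the other lists the genes furthest apart over all cycling cells were Cdc25c (log2 -1.58), Cdc45 (-1.22), Pold1 (-1.19), Atad2 (-1.13), Smc4 (-1.07), Ccnd3 (-1.06) and Ncapg (-1.05). Of these 7, Cdc45 (-0.97) and Smc4 (-0.70) lay under 2-fold without the deepest cells.

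Over all T cells the same lists held genes on both sides. Cdkn1a, the inhibitor p21, was at 33.3 CPM in IEL and 167.0 in TIL (log2 2.32, 2.26 to 2.39), while Cdkn1b, p27, named after its value was seen, was at 212.9 and 86.5 CPM (log2 -1.30). Tob1 was at 110.3 and 43.4 CPM (log2 -1.34) and Foxo1 was at 508.3 and 177.8 CPM (log2 -1.52). Lig1, the replicative DNA ligase, was at 24.0 and 102.6 CPM (log2 2.10), and Rpa2, of the single-strand binding complex, at 104.1 and 28.5 CPM (log2 -1.87). Cdc25b, a phosphatase that activates CDK1, was at 5.08 and 22.6 CPM (log2 2.16), Cks2, a CDK subunit, at 53.1 and 139.1 CPM (log2 1.39), and Pttg1, securin, at 150.6 and 61.1 CPM (log2 -1.30). Others at least 2-fold higher in IEL were Hist1h1b (log2 -2.47), Hist1h4d (-2.14), Rfc4 (-1.57), Racgap1 (-1.44), Ncapd3 (-1.09) and Ccnd3 (-1.03). Of the 44 list genes that reached 20 CPM, 4 were higher in TIL (10.9% of all genes were) and 15 in IEL (13.6% of all genes were).

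On the GRCm38 annotation (GENCODE vM21), all 39 members were matched by gene identifier, and 8 overlapped a protein-coding gene on the other strand: Mcm7, Pclaf, Gins2, Tk1, Ccne2, Ube2c, Ccna2 and Nusap1. Mcm7 (chr5:138164583-138172422, minus strand) overlaps Cops6 and Ap4m1. Tubb5 lies at chr17:35833921-35838306 (minus strand) and overlaps none. Whether the counting used strand, and how reads that match several near-identical genes or pseudogenes were assigned, is not given in the sources used here, so the values of overlapping members are less certain.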

How the data were processed

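Values in the deposited matrices are raw UMI counts (integers, given for each gene in each barcode), per the file headers. The authors' Cell Ranger 6.1.1 and mm10 are named in the submitters' processing notes. The step that separated cells from empty droplets is not given in the sources used here. The libraries were 10x 3′ v3, per the labels' protocols.

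Barcodes with at least 500 genes, 1000 UMIs and at most 10% mitochondrial UMIs were kept (9128 IEL, 12407 TIL). A T cell had at least 2 UMIs of Cd3d, Cd3e and Cd3g, and no other cell type with 3 or more markers and 5 or more UMIs. No doublet caller was run. UMIs were summed per library and set of cells and given as CPM with exact Poisson intervals. Ratios have exact conditional 95% intervals and shares exact Clopper-Pearson intervals (SciPy 1.17.1), which treat each UMI and each cell as an independent draw. Where no cell was found, the limit given is 3 counts of the total. Calls were checked on simulated independent Poisson counts at the depth of all IEL T cells for both sides. These held no variation between cells or libraries, so the check covers counting error only and not the cycling cells. With 1 library in each group, no p-values are given. Cycling shares were given at full depth and after thinning each cell to 2000 or 4000 UMIs. Phase sums were taken after thinning to 4000, and marker groups were called at 2000. The shares of cells with cyclins, with Plk1 or Aurka and with MCM genes, and the shares of UMIs in cycling cells, were not thinned.

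The members, lists and tests were chosen with earlier results of these data known. Named were 12 set members, the 3 of each phase furthest apart in each direction, the 6 most and 6 least concentrated in cycling cells, the 2 furthest apart of each other list, and the 10 most concentrated other genes. Clusters for the alternative T cell rule came from Scanpy 1.11.5.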

Additional observations from a re-analysis of the deposited data

Results flagged for a closer look

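Among the barcodes that passed the filter but were not counted as T cells, 8 of 368 in TIL (2.17%, 0.943 to 4.24) had at least 4 of the 7 rule genes, and none of 40 did in IEL. Of the 8, 3 had fewer than 2 CD3 UMIs and 5 had markers of another cell type. These barcodes enter no comparison above, and the share was singled out because it is a signal in data not used there.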

How the results depend on the processing

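Each group was 1 library, so no replicate could be left out. No paired analysis was possible because each group had 1 library. Looser and stricter filters on barcodes, T cells taken by clusters, and at least 5 of the 7 genes left each share and phase fraction inside its interval. Median ratios stayed within the typical counting spread of a single member's ratio. Under the stricter filter the members at least 2-fold higher in IEL over all T cells went from 3 to 2, and no other count changed. With T cells limited to those with a γδ receptor UMI and no Trac UMI, the cycling share was 0% of 1998 IEL cells, where a limit of 3 counts allows up to 0.150%, and 0.471% in TIL. No ratio in cycling cells and no IEL phase fraction could then be given, and the TIL phase fraction was 0.243. The medians were then -0.18 (S phase) and 0.53 (G2/M) in all T cells and -0.27 and 0.18 in cells with none of the 7 genes, and 1 member, Stmn1 (log2 1.94), was at least 2-fold higher in TIL. These medians over all T cells and the Stmn1 value set IEL cells with no cycling cell beside TIL cells that include some. The part of that, and of free RNA in the Stmn1 value, was not tested. Without cells above 20000 UMIs the shares were 0.620% and 0.683%, the S phase median over all T cells -0.18 and the G2/M median in cycling cells -0.042, while the S phase median there was -0.36. With at least 3 of the 7 genes the shares were 1.16% and 1.46% and the TIL phase fraction 0.238. Thinning to 2000 UMIs gave shares of 0.332% and 0.426%, and thinning to 4000 gave 0.558% and 0.627%. Putting the 7 rule genes in the phase sums gave fractions of 0.563 and 0.545. Leaving Cenpa out of the G2/M sum, a setting chosen after seeing the data, gave 0.333 and 0.2.

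The medians in all T cells and in cells with none of the 7 genes moved with the genes that entered them. With a 5 CPM minimum they were -0.13 (S phase) and -0.15 (G2/M) in all T cells and 0.44 (G2/M) in cells with none of the 7 genes. With 50 CPM they were 0.14 and 0.45 in all T cells and 0.12 (S phase) in cells with none, and 1 member was at least 2-fold higher in IEL over all T cells. With no minimum, a setting chosen after seeing the data, they were -0.022 and -0.17 in all T cells and -0.044 and -0.50 in cells with none. With the median gene ratio set to 1 they were -0.18 and 0.24, and -0.25 and 0.067. With the mean over cells of CPM per cell, the S phase median over all T cells was -0.17 and the G2/M median in cells with none of the 7 genes 0.0033. These medians thus took both signs across settings, and the cause was not tested beyond the change in genes. The 8 single-member ratios that were at least 2-fold apart had 75 values under these settings, of which 61 kept the call, 14 lost it and none reversed. The 102 ratios without a call gained one in 7 of 954 values. Tyms lost its call over all T cells under 6 settings, through its ratio or the CPM minimum, with values between -0.83 and -1.26 on the log2 scale, and Tpx2 in cycling cells was at -0.92 with the median gene ratio set to 1 and at -0.82 as a mean over cells.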

Other observations

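Genes of T cell state were set beside the cell cycle in a list of 14. In TIL, Il7r, the interleukin-7 receptor, was at 387.6 CPM in cycling cells and 1019 in T cells with none of the 7 rule genes. Areg, a growth factor of tissue repair, was at 2305 and 5979 CPM, and Il17a at 2870 and 4532 CPM. Gzma, a granzyme, was at 4658 and 4071 CPM. In IEL, Gzma was at 11938 and 9101 CPM and Ccl5, a chemokine, at 14988 and 21571 CPM, while Cd8a was at 558.8 and 567.5 CPM. Tcf7, a factor of memory T cells, was at 34.5 and 76.2 CPM in IEL and 20.4 and 36.7 CPM in TIL.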
